A study of Mus musculus with 4 samples.

Results

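Osteoclast differentiation and fusion genes, a set of 8, were followed in mouse bone marrow-derived macrophages in which the adenylyl cyclase gene Adcy7 had been targeted. The members are Acp5, Nfatc1, Dcstamp, Ocstamp, Calcr, Oscar, Tnfrsf11a and Siglec15, taken by name from the 55401 genes of the count table, and each was found there. The cultures came from C57BL/6J marrow and differentiated into macrophages over 5 days. On day 1 they were given CRISPR-Cas9 lentivirus at a multiplicity of infection of 30. The Adcy7 knockout group (2 libraries) received virus aimed at Adcy7, and the Rosa control group (2 libraries) received virus aimed at Rosa, a locus commonly used as a neutral target, so both groups share the virus and Cas9. Infected cells were not described as clones, the labels name no RANKL treatment, and they do not say whether replicates were separate cultures or mice, so the p-values reflect spread among these libraries alone, and that spread may be technical.

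Osteoclasts are the bone-resorbing cells of the monocyte lineage. Macrophage precursors become osteoclasts when the cytokine RANKL binds its receptor RANK, encoded by Tnfrsf11a, in the presence of the growth factor M-CSF. RANK signals through Traf6, NF-kB and Fos, and immunoreceptors with the adaptors Tyrobp and Fcer1g add a calcium signal. Both arms meet on Nfatc1, the transcription factor that switches on genes for cell fusion and for acid and enzyme secretion onto bone.

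The libraries held 61782358 to 71914179 counts. Adcy7 itself was at 59.4 and 58.8 CPM (counts scaled to a library total of 1e6) in the knockout libraries, against 122 and 125 CPM in the control libraries. Of 12 macrophage markers, 11 were lower and none higher in the knockout, against 24.6% lower and 25.0% higher over all tested genes. The summed level of these markers was 20181 to 20368 CPM in the knockout, against 57132 to 58767 CPM in the control. Within that list Lyz2, the lysozyme gene, was at 16468 and 16439.7 CPM in the knockout, against 50358 and 52209 CPM in the control, while Cd68, chosen after its values were seen, was at 956 and 894 CPM against 916 and 855 CPM. Csf1r and Cd68 were thus abundant in both groups. In contrast C1qa, C1qb, C1qc and Mrc1, all 4 among the macrophage markers, were at or below 0.487 CPM in the knockout libraries. In the control libraries C1qa was at 76.5 and 66.9 CPM, and C1qb at 453 and 384 CPM. Control levels of C1qc were 324 and 278 CPM, and those of Mrc1 28.3 and 22.1 CPM. C1qa, C1qb and Mrc1 reached the count needed for testing only through their control counts. In bulk RNA, fewer cells of a type and less RNA per cell cannot be told apart.

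The 8 genes did not move together. Acp5 was 8.46-fold higher in the knockout, Tnfrsf11a was at 21.5% of its control level, and Nfatc1 was slightly lower. The fusion gene Dcstamp was detected at trace level, and Ocstamp, Oscar, Calcr and Siglec15 lay at or near the detection floor in both groups. Of the 8, 4 reached the count needed for testing, and of these 1 was higher, 2 were lower and 1 did not pass. The threshold was 0.05 on the Benjamini-Hochberg adjusted p over 15832 genes, from the quasi-likelihood F test of edgeR. Over all tested genes 49.6% passed, 25.0% higher and 24.6% lower in the knockout, so a passing gene was common in this comparison and the size of a change says more than its call. The share of all genes whose groups did not overlap was not counted. With 2 libraries per group, a lack of overlap alone says little.

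**Figure D1:**
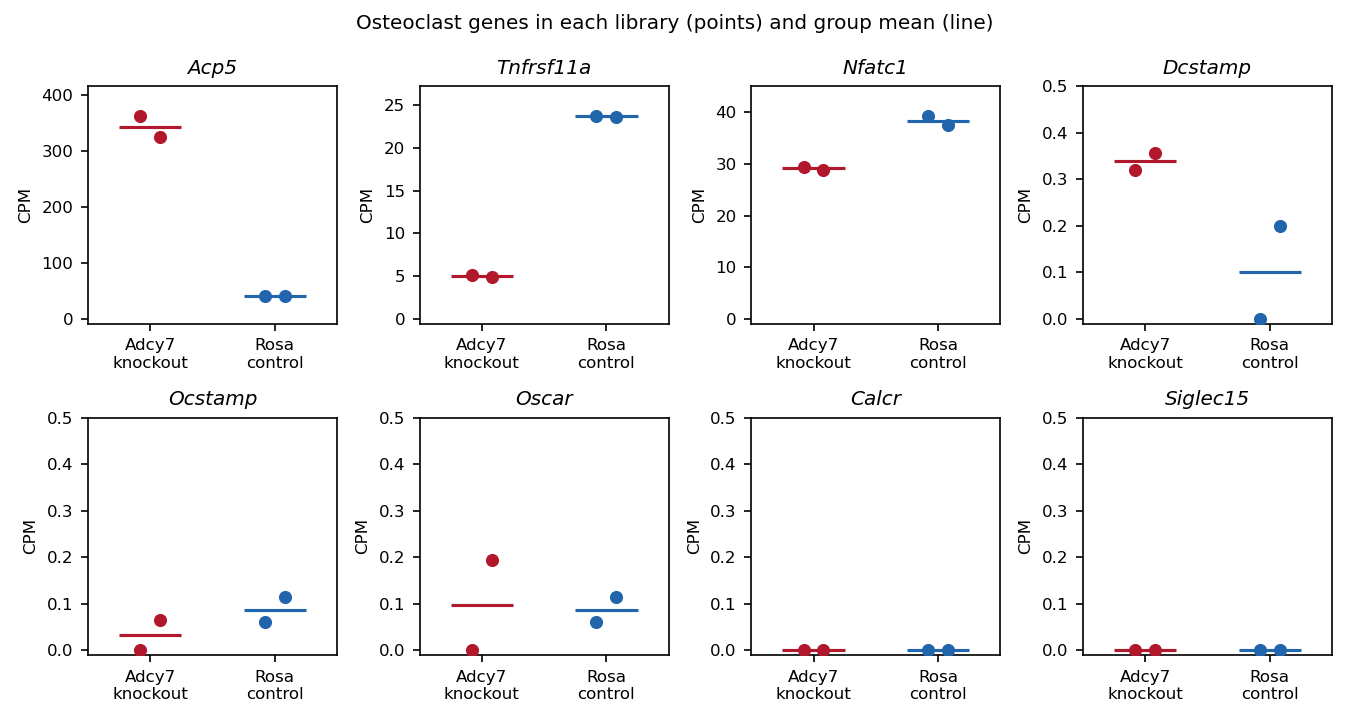
Level of each of the 8 genes in CPM (vertical axis, from 0, a scale for each gene), with points for the 2 Adcy7 knockout and the 2 Rosa control libraries and a line at the group mean. Acp5 sits at 326 to 362 CPM in the knockout and near 41 CPM in the control, Tnfrsf11a shows the opposite order, and the panels of Ocstamp, Oscar, Calcr and Siglec15 stay below 0.2 CPM.

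Acp5 encodes tartrate-resistant acid phosphatase, the enzyme whose activity stain is used to recognise osteoclasts, and it is also made by some activated macrophages. Acp5 (ENSMUSG00000001348, chromosome 9) was at 362 and 326 CPM in the knockout libraries, against 41.5 and 40.7 CPM in the control libraries. Both knockout libraries were far above both control libraries, and the gap was many times the spread within either group. Acp5 averaged 344 ± 25.9 CPM in the knockout, against 41.1 ± 0.542 CPM in the control (SD, n = 2 each), an 8.46-fold difference (log2 fold change 3.08, standard error, SE, 0.11; edgeR adjusted p of 3.44e-09). Per exon length, the Acp5 level was 425 and 379 TPM (a level per exon length, scaled within each library) in the knockout, against 47.0 and 45.3 TPM in the control. That placed Acp5 at percentiles 98.5 and 98.3 of the detected genes in the knockout libraries, against 87.5 and 87.4 in the control libraries. A transcript on the other strand, 6530413G14Rik, overlaps Acp5 and reached at most 0.0973 CPM in any library.

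Tnfrsf11a encodes RANK, the receptor through which RANKL starts osteoclast formation. Tnfrsf11a (ENSMUSG00000026321, chromosome 1) was at 5.15 and 4.90 CPM in the knockout libraries, against 23.7 and 23.7 CPM in the control libraries. The groups did not overlap, and the libraries within each group lay close together. The mean level was 5.02 ± 0.170 CPM in the knockout, against 23.7 ± 0.0134 CPM in the control (SD, n = 2 each). Tnfrsf11a fell by 2.22 on the log2 scale (SE 0.14), with an edgeR adjusted p of 3.45e-07.

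Because Acp5 and Tnfrsf11a moved in opposite directions, and Oscar stayed near the floor, the sequences at their starts are shown side by side. The promoters are those of RefSeq on build GRCm38.p6, which differs from the GRCm39 build named by the submitters. Each runs 5′ to 3′ on the gene's strand from 250 bases before to 50 bases after the start. Capitals mark matches on either strand to the letters TGGAAA of NFAT, TGANTCA of AP-1, GAGGAA of PU.1, and CATGTG or CACGTG of MITF. Acp5 has 3 listed starts, and the one shown, at chr9:22130549-22130848 on the minus strand, is the only one of them with a match. Tnfrsf11a is shown at chr1:105780473-105780772 on the plus strand, and Oscar at chr7:3616108-3616407 on the minus strand.
Acp5: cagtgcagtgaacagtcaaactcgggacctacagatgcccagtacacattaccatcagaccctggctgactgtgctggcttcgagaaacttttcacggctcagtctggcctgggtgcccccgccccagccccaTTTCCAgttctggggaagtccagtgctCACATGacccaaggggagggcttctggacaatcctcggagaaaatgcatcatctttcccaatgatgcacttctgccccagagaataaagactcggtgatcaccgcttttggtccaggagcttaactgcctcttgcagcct
Tnfrsf11a: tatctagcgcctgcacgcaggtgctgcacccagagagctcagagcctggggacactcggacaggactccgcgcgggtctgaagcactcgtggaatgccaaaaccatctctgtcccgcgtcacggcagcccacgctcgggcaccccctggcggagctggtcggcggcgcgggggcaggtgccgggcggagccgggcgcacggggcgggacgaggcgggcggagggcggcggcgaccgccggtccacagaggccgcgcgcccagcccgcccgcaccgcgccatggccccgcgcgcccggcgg
Oscar: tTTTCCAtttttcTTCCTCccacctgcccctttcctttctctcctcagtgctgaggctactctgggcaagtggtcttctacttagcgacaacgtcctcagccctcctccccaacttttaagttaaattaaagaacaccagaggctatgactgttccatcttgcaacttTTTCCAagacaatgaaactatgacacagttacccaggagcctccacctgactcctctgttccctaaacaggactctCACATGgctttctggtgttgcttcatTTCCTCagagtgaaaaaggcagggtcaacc

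The Acp5 window held 1 NFAT match and 1 MITF match, and no match to AP-1 or PU.1. The Tnfrsf11a window held none of the 4 motifs. The Oscar window held 2 NFAT, 2 PU.1 and 1 MITF matches, although Oscar RNA was near the floor. Of all 32817 windows of this length, 21.4% held the NFAT letters, 28.3% PU.1, 20.4% MITF and 7.81% AP-1, so matches of this kind are frequent. A match describes letters only and is not a binding site. Windows were listed for 4 of the 8 members (Acp5, Calcr, Oscar and Tnfrsf11a), and neither Calcr window held a match.

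Nfatc1 encodes the transcription factor regarded as the master regulator of osteoclast formation. Nfatc1 (ENSMUSG00000033016, chromosome 18) was at 29.5 and 28.8 CPM in the knockout libraries, against 39.2 and 37.6 CPM in the control libraries. The groups did not overlap, but the gap was small beside those of Acp5 and Tnfrsf11a. The log2 fold change was -0.38 (SE 0.11), or 76.7% of control, with an edgeR adjusted p of 0.0111. The call was lost when Rosa control replicate 1 was left out (adjusted p of 0.096) and when Rosa control replicate 2 was left out (adjusted p of 0.0747), with log2 fold changes of -0.38 and -0.40. An antisense gene annotated over Nfatc1, AC123818.1, had no count in any library.

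The family members of Nfatc1 differed. Nfatc2, a related factor, was at 6.34 and 5.31 CPM in the knockout, against 25.2 and 21.7 CPM in the control, and fell by 1.98 on the log2 scale (SE 0.16, adjusted p of 1.63e-06 in edgeR's test). Nfatc3, chosen after its values were seen, was at 42.9 and 37.1 CPM in the knockout, against 40.2 and 45.8 CPM in the control, and did not pass (log2 fold change of -0.09, SE 0.12, adjusted p of 0.584). Nfatc1 and Nfatc2 were thus lower, whereas the groups overlapped for Nfatc3.

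**Figure D2:**
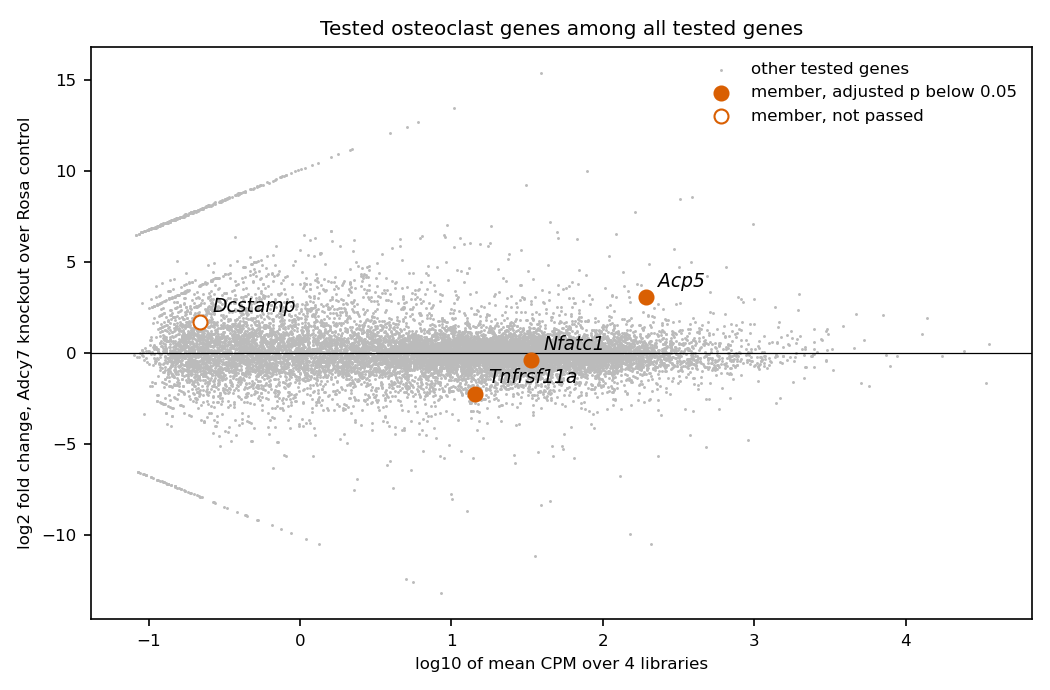
Each tested gene by its mean level over the 4 libraries (horizontal axis, log10 CPM) and its log2 fold change, Adcy7 knockout over Rosa control (vertical axis), with the 4 tested osteoclast genes in orange and the open circle for the one that did not pass. Acp5 lies at 3.08, Tnfrsf11a at -2.22 and Nfatc1 at -0.38; the slanted bands at the upper and lower edges on the left are genes with no count in one of the groups.

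Dcstamp and Ocstamp encode multi-pass membrane proteins needed for the fusion of osteoclast precursors and of macrophage giant cells. Dcstamp (ENSMUSG00000022303, chromosome 15) was at 0.320 and 0.356 CPM in the knockout libraries, against 0 and 0.200 CPM in the control libraries. The groups did not overlap, but all 4 levels were low. They stand for 23 and 22 counts in the knockout, against 0 and 14 counts in the control. If 1 fragment is worth about 4 counts, as low counts in this table point to, they are about 11 fragments pooled over the knockout and 4 over the control, a ratio of 2.79 with a 95% exact binomial interval of 0.827 to 12 that covers counting error only. The difference did not pass in edgeR's test (log2 fold change of 1.70, SE 0.91, adjusted p of 0.145), and Dcstamp was tested only because of its knockout counts. Without Rosa control replicate 2, which holds all control counts, the adjusted p was 0.0499 and the log2 fold change 7.50. Dcstamp RNA was therefore near the detection limit in both groups, and a difference was not detectable at this depth.

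Ocstamp (ENSMUSG00000027670, chromosome 2) had 0 and 4 counts in the knockout libraries, against 4 and 8 counts in the control libraries. Pooled, that was 0.0299 CPM in the knockout, against 0.0885 CPM in the control. The floor, taken as 3 fragments or 12 counts over a group, was 0.0898 CPM in the knockout, against 0.0885 CPM in the control, so neither group rose above it and no fold is given.

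The receptors of mature osteoclasts and their precursors gave the same picture. Oscar, a collagen receptor that signals through Fcer1g, had 0 and 12 counts in the knockout libraries, against 4 and 8 counts in the control libraries, with 0.0898 and 0.0885 CPM pooled over each group, at the floor in both. Calcr, the calcitonin receptor that marks mature osteoclasts, and Siglec15, a sialic acid-binding receptor that signals through Tyrobp, had 0 counts in all 4 libraries. A count of 0 allows a level of up to 0.0898 CPM in the knockout, against 0.0885 CPM in the control. The microRNA genes Mir489 and Mir653 inside Calcr also had no count. Oscar, Ocstamp, Calcr and Siglec15 did not reach the count needed for testing.

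The 3 most abundant members kept the same order in all 4 libraries, but the gaps between them differed. Per exon length, Acp5 was the highest in all 4 libraries, followed by Nfatc1 at 9.40 and 9.10 TPM in the knockout, against 12.1 and 11.4 TPM in the control. Tnfrsf11a followed at 2.05 and 1.94 TPM in the knockout, against 9.11 and 8.93 TPM in the control. Nfatc1 and Tnfrsf11a levels were thus closer in the control than in the knockout, and the other 5 members stayed at or below 0.316 TPM in all 4 libraries. Of the summed CPM of the 8 genes, Acp5 made up 91.2% and 90.5% in the knockout libraries, against 39.7% and 39.8% in the control libraries. The Acp5 to Tnfrsf11a count ratio was 70.4 and 66.4 in the knockout libraries, against 1.75 and 1.72 in the control libraries.

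The genes most like each tested member were sought by the smallest Euclidean distance over the 4 libraries, in log2 CPM centred on each gene's mean, among genes with a mean of at least 1 CPM. Nearest to Acp5 were Fst, the activin antagonist follistatin, and Chchd10, a mitochondrial protein gene, at distances of 0.0679 and 0.0968. Fst was at 6.41 and 5.68 CPM in the knockout, against 0.730 and 0.730 CPM in the control. Nearest to Tnfrsf11a were Mxd4, a Myc network repressor, and Lgmn, the lysosomal protease legumain, at 0.0756 and 0.079. Lgmn was at 99.4 and 90.9 CPM in the knockout, against 472 and 450.3 CPM in the control. Psmb2, a proteasome subunit gene, and Trabd were nearest to Nfatc1 at 0.0165 and 0.0249, while the nearest to Dcstamp, Zfp74 and Bend6, were farther away at 0.324 and 0.728. With 4 libraries in 2 groups these distances describe little more than a shared fold change.

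Bone resorption genes, the enzymes, pumps and attachment proteins of the mature osteoclast, were mostly higher in the knockout. Of 17 listed and tested, 12 were higher, 1 was lower and 4 did not pass, against 25.0% higher and 24.6% lower over all tested genes, and their median log2 fold change was 0.92, against 0.01 over all tested genes. Their summed level was nevertheless lower, at 3679 to 4034 CPM in the knockout, against 4105 to 4295 CPM in the control. Mmp9, the most abundant of them, was lower in the knockout. Ctsk, the collagen-cleaving cathepsin K, was at 79.8 and 81.4 CPM in the knockout, against 6.92 and 9.13 CPM in the control, a 10.1-fold difference (log2 fold change of 3.34, SE 0.14, adjusted p of 1.52e-08 in edgeR's test). Src, a kinase needed for the ruffled border, was at 46.0 and 48.0 CPM in the knockout, against 0.943 and 1.25 CPM in the control, or 43.2-fold higher (SE 0.17 on the log2 scale, adjusted p of 2.35e-09 in edgeR's test). For Src, Ctsk and Acp5 alike, both knockout libraries stood above both control libraries, an order that Ostm1, which did not pass, also had.

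Itgb3, the integrin beta chain of the osteoclast vitronectin receptor, was at 61.8 and 55.6 CPM in the knockout, against 8.24 and 8.10 CPM in the control, 7.27-fold higher (adjusted p of 2.11e-08 in edgeR's test). Its osteoclast partner chain Itgav was at 37.8 and 40.9 CPM in the knockout, against 21.5 and 21.9 CPM in the control, and Itga2b, the partner chain in platelets, was at 86.3 and 69.2 CPM in the knockout, against 10.1 and 11.0 CPM in the control. Both partner chains were higher in the knockout, Itga2b by 7.44-fold and Itgav by 1.83-fold. All 11 platelet and megakaryocyte markers were higher in the knockout, against 25.0% of all tested genes, with a summed level of 375 to 425 CPM, against 192 to 209 CPM in the control, and a median log2 fold change of 2.67. Pf4, the most abundant, was at 207 and 189 CPM in the knockout, against 170.5 and 153 CPM in the control, and it and Ppbp were 1.24-fold and 1.63-fold higher. The other platelet markers were 4.65-fold (Treml1) to 34.8-fold (Gp1bb) higher, a range that includes the 7.27-fold of Itgb3. Their part in the Itgb3 result was not tested.

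Resorption genes with a role in acid secretion included some that were higher and some that did not pass. Car2, the carbonic anhydrase that supplies protons, was at 2.16 and 2.98 CPM in the knockout, against 0.745 and 0.386 CPM in the control (4.57-fold, adjusted p of 0.000831 in edgeR's test). Atp6v0d2, a proton pump subunit that also takes part in fusion, was at 3.89 and 4.63 CPM in the knockout, against 1.20 and 1.23 CPM in the control (3.52-fold, adjusted p of 0.000213). Clcn7, the chloride channel that balances proton transport, and Slc4a2, the bicarbonate exchanger, were 2.75-fold and 3.07-fold higher. Tcirg1, the pump subunit linked to osteopetrosis, was 1.48-fold higher. Some other genes of the list did not pass. Ostm1, which encodes the Clcn7 subunit, was at 59.3 and 56.2 CPM in the knockout, against 49.5 and 55.6 CPM in the control, and did not pass. Nor did Rab7 and Plekhm1 of the late endosome, with log2 fold changes of -0.15 and -0.16.

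The exception among resorption genes that passed was Mmp9, a gelatinase abundant in osteoclasts and in macrophages. Mmp9 was at 1773 and 1432 CPM in the knockout, against 2799 and 2708 CPM in the control, and fell by 0.76 on the log2 scale (SE 0.12, adjusted p of 0.000289 in edgeR's test). Mmp14, a membrane-bound metalloproteinase, moved the other way, at 299.6 and 293 CPM in the knockout, against 147 and 135 CPM in the control.

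**Figure D3:**
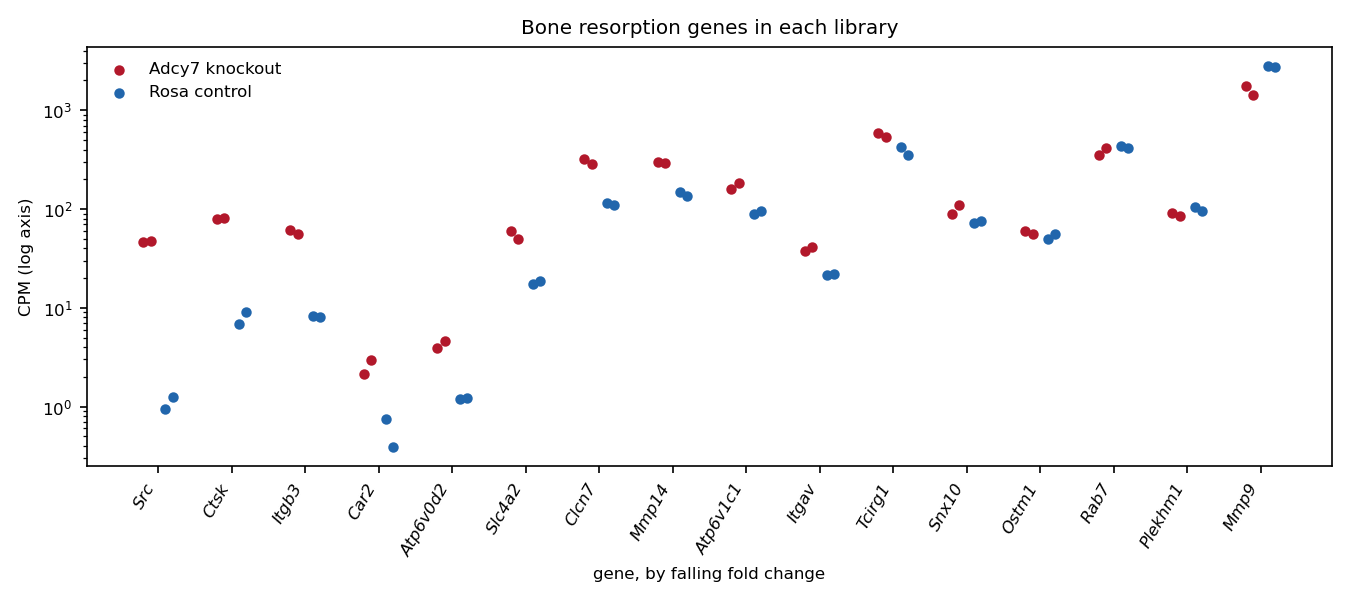
Level of 16 bone resorption genes in CPM (vertical log axis) in each Adcy7 knockout library (red, left of each pair) and Rosa control library (blue, right), ordered by fold change from the highest on the left; Slc9b2, with no count in 1 library, is left out. Src, Ctsk and Itgb3 show the widest gaps, and Mmp9 at the right end is lower in the knockout, at 1773 and 1432 CPM against 2799 and 2708 CPM.

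Genes that assist cell fusion moved both ways. Of 17 listed, 15 were tested, and 5 were higher, 5 lower and 5 not passed, against 25.0% higher and 24.6% lower over all tested genes. Their median log2 fold change, 0.01, equalled that of all tested genes. Itgb3 and Atp6v0d2 are counted here too. Cd9, a tetraspanin that modulates fusion, was at 491 and 519 CPM in the knockout, against 219.5 and 246 CPM in the control (2.19-fold, adjusted p of 3.37e-06 in edgeR's test). P2rx7, an ATP-gated channel linked to macrophage fusion, was at 23.9 and 24.7 CPM in the knockout, against 77.3 and 78.5 CPM in the control, and fell by 1.67 on the log2 scale (SE 0.10, adjusted p of 2.26e-07). Sirpa, the receptor for Cd47, and the protease gene Adam8 did not pass, at log2 fold changes of -0.11 and -0.20. The captured retroviral envelope genes Syna and Synb, which fuse placental cells, reached at most 0.139 CPM.

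Genes of RANK signalling and its costimulatory receptors were also split. Of 29 listed, 28 were tested, and 9 were higher, 10 lower and 9 not passed, around a median of -0.06 (log2 fold change). This compares with 25.0% higher and 24.6% lower over all tested genes. The ligand gene Tnfsf11 (RANKL) was at 0.195 and 0.324 CPM in the knockout, against 0 counts in both control libraries. Its pooled knockout level was 2.87 times the control floor of 12 pooled counts, a ratio that leaves out counting error in the knockout. Tnfsf11 was called higher (adjusted p of 0.0142 in edgeR's test). Like Dcstamp, Tnfsf11 reached the count needed for testing only through its knockout counts. The call rested on low counts and was lost without a count filter (adjusted p of 0.064) and without either control library (0.0975 and 0.0964). Its decoy receptor Tnfrsf11b was at 0.0556 and 0.437 CPM in the knockout, against 0 counts in both control libraries, and was not tested. Osteoblasts and marrow stroma are the usual source of both, and of 12 osteoblast and stromal markers, Bglap, Ibsp and Lepr had no count in any library, with a summed level of 4.91 to 6.99 CPM in the knockout, against 7.08 to 8.01 CPM in the control. Tnfsf11 and Tnfrsf11b are themselves on that list and in its sums. Besides Tnfsf11, Alpl was higher, again tested only through its knockout counts (0 counts in both control libraries), Runx2 was lower, and Col1a1 and Col1a2 did not pass. The most abundant, Runx2 and Col1a1, were at 3.16 and 4.47 and at 0.570 and 0.761 CPM in the knockout, against 6.78 and 6.91 and 0.623 and 0.0572 CPM in the control.

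Downstream of the receptor, Traf6, the adaptor that RANK recruits, was at 26.6 and 29.0 CPM in the knockout, against 19.3 and 17.8 CPM in the control (1.51-fold, adjusted p of 0.00141 in edgeR's test). The costimulatory adaptors moved in opposite directions. Tyrobp (DAP12) was at 550.4 and 505 CPM in the knockout, against 769 and 794 CPM in the control, and Fcer1g was at 1214 and 1164 CPM in the knockout, against 937 and 1003 CPM in the control. Tyrobp was lower and Fcer1g higher, both past the threshold (adjusted p of 0.000626 and 0.0186 in edgeR's test). Trem2, a receptor that pairs with Tyrobp, was at 209 and 169 CPM in the knockout, against 626 and 607 CPM in the control, and fell by 1.69 on the log2 scale (SE 0.12). Sirpb1a, another Tyrobp partner, fell by 1.78 (SE 0.20).

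The kinases, scaffolds and phosphatase subunits of the calcium signal moved both ways. The kinase gene Syk was 1.58-fold higher, whereas the kinase gene Btk and the phospholipase gene Plcg2 were lower, at log2 fold changes of -0.67 and -0.50. Blnk was 3.25-fold higher, at 73.8 and 71.7 CPM in the knockout, against 24.8 and 20.6 CPM in the control. Lat, a scaffold best known from T cells, mast cells and platelets, was 15.6-fold higher, at 8.12 and 7.17 CPM in the knockout, against 0.487 and 0.501 CPM in the control. Beside Lat, 6 of 7 tested mast cell and basophil markers were higher and none lower in the knockout, out of 11 listed, with Mcpt4, Tpsab1 and Cma1 at 0. Their summed level was 62.8 to 64.6 CPM in the knockout, against 24.8 to 32.8 CPM in the control. Cpa3 and Ms4a2 reached the count needed for testing only through their knockout counts, and 25.0% of all tested genes were higher. Gata2 was at 8.91 and 8.08 CPM in the knockout, against 1.17 and 1.03 CPM in the control, and Hdc was at 30.1 and 31.1 CPM against 29.8 and 22.1 CPM. Their part in the Lat result was not tested. Of the calcineurin genes, which act on NFAT factors, the catalytic subunit genes Ppp3ca and Ppp3cb were lower, at log2 fold changes of -0.75 and -0.32 (adjusted p of 9.79e-05 and 0.0373 in edgeR's test). The regulatory subunit gene Ppp3r1 and the scaffold gene Lcp2 did not pass, at -0.04 and 0.12. Csf1r, the M-CSF receptor gene, fell by 0.53 (SE 0.10, adjusted p of 0.00107 in edgeR's test).

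Genes listed as transcription factors that act with Nfatc1 were split evenly. The list also holds the coactivator gene Ppargc1b, which did not pass, and the DNA methyltransferase gene Dnmt3a, which was lower. Of 25 listed and tested, 9 were higher, 9 lower and 7 not passed, around a median of -0.02 (log2 fold change). All tested genes were split about as evenly, with 25.0% higher and 24.6% lower. Fos, which is required for osteoclast formation, was at 43.1 and 40.7 CPM in the knockout, against 481 and 402 CPM in the control, and fell by 3.38 on the log2 scale (SE 0.11, adjusted p of 3.17e-09 in edgeR's test). Its relative Fosl1 was at 12.3 and 10.3 CPM in the knockout, against 1.19 and 0.801 CPM in the control, 11.5-fold higher (SE 0.25 on the log2 scale, adjusted p of 7.48e-07). Fos and Fosl1, both AP-1 partners of Jun proteins, thus moved in opposite directions. Jun was at 132 and 134 CPM in the knockout, against 270.4 and 248 CPM in the control, and fell by 0.94 on the log2 scale (SE 0.09, adjusted p of 7.44e-06), while Junb and Jund did not pass at -0.14 and 0.13. Spi1, the PU.1 gene, was at 371 and 354 CPM in the knockout, against 706 and 675 CPM in the control, and Mitf was at 21.4 and 22.7 CPM against 31.2 and 33.9 CPM, both lower. The NF-kB gene Nfkb2 was 2.87-fold higher. Pparg, counted among the lower genes, reached the count needed for testing only through its control counts. Pparg, at 0.0417 and 0.534 CPM in the knockout, against 1.25 and 1.03 CPM in the control, passed at an adjusted p of 0.0201 and lost its call with DESeq2, without a count filter, with the earlier quasi-likelihood method and without Adcy7 knockout replicate 1 (adjusted p of 0.0698, 0.0984, 0.0918 and 0.157, the last at a log2 fold change of -1.09).

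Repressors of osteoclast formation were split too. Of 16 listed, 15 were tested, and 6 were higher, 6 lower and 3 not passed, with a median of -0.07, against 25.0% higher and 24.6% lower over all tested genes. Irf8, whose loss is known to favour osteoclasts in mice, was at 109.9 and 105 CPM in the knockout, against 347 and 337 CPM in the control, and fell by 1.66 on the log2 scale (SE 0.09, adjusted p of 1.13e-07 in edgeR's test). Pirb, an inhibitory receptor, fell by 1.75 (SE 0.09). In contrast Id3, an inhibitor of helix-loop-helix factors, was at 20.3 and 17.3 CPM in the knockout, against 6.22 and 5.84 CPM in the control (3.16-fold, adjusted p of 6.72e-06). Cyld and Nr4a1 did not pass, at -0.14 and 0.28.

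**Figure D4:**
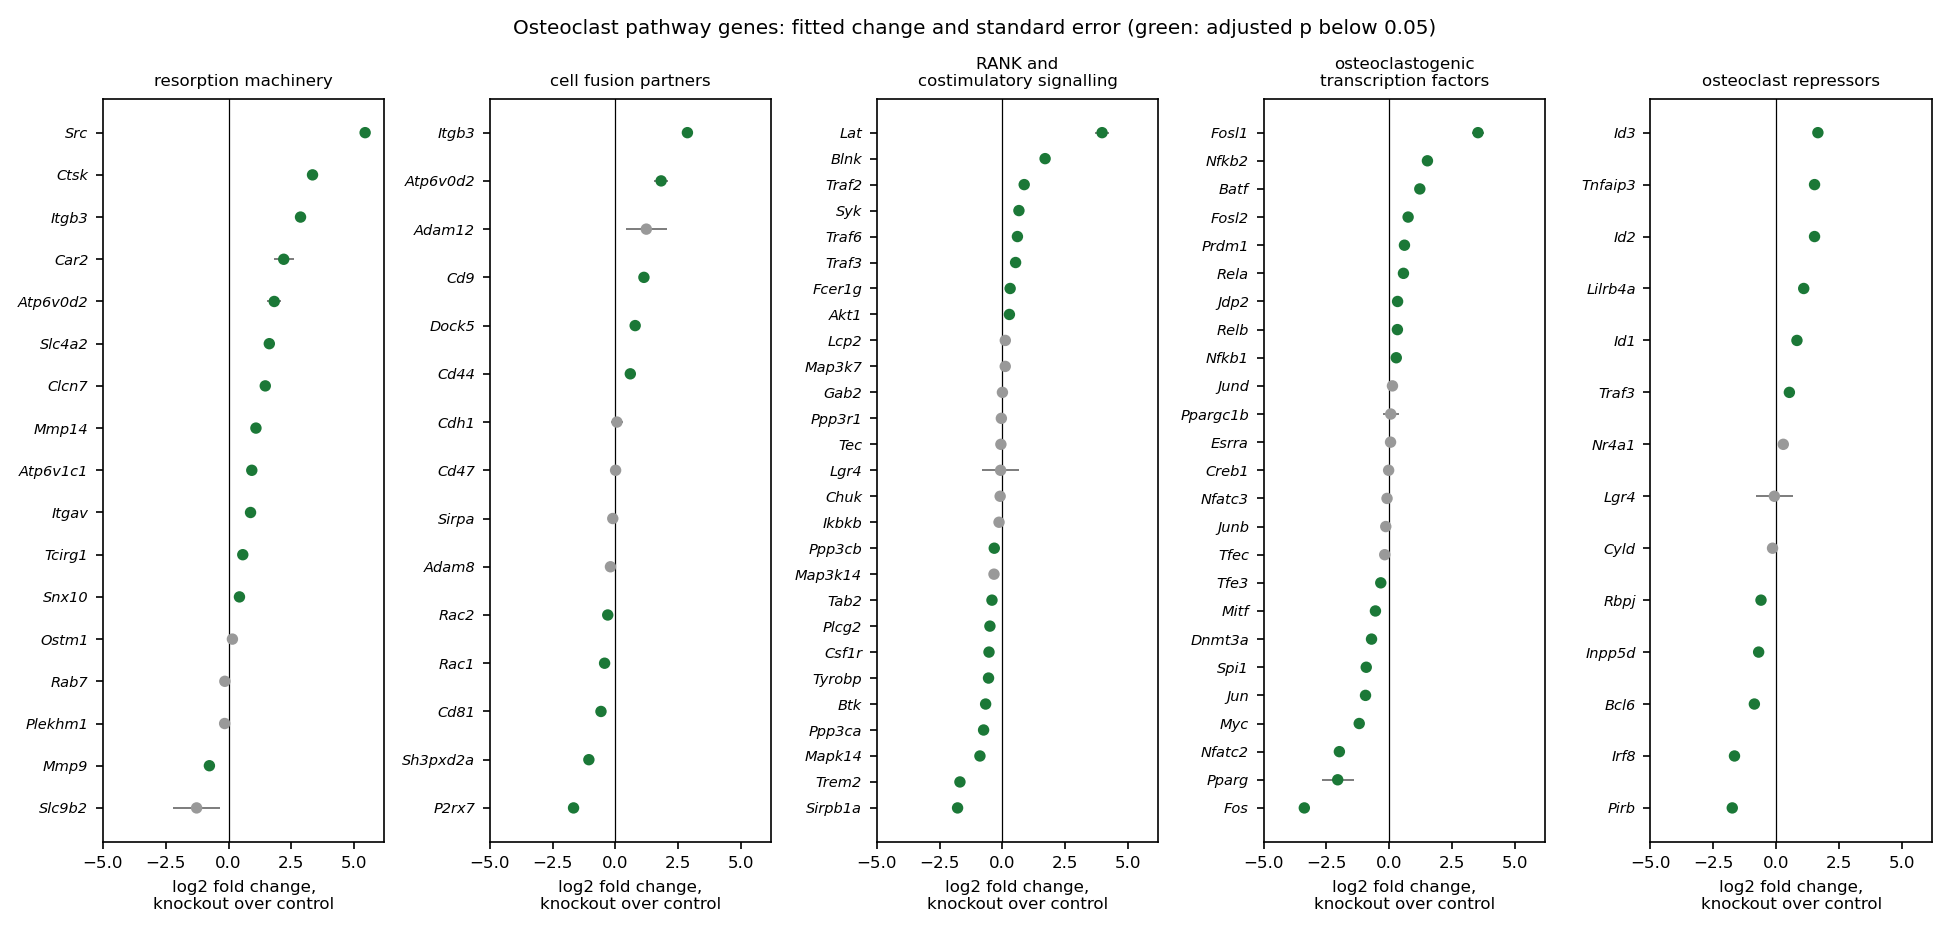
Log2 fold change, Adcy7 knockout over Rosa control (horizontal axis), with its SE as a bar, for tested genes of the 5 osteoclast-related lists; green points passed an adjusted p of 0.05 and grey points did not, and Tnfsf11, with no control count, and 1 of the listed repressors are left out. In the first panel 12 of 17 genes are green on the right of 0 and only Mmp9 is green on the left, whereas in the other panels green points lie more evenly on both sides.

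Markers of other cells differed between the groups as well, beside 25.0% higher and 24.6% lower over all tested genes. Of eosinophil markers, 6 of 7 tested (8 listed, none without a count in all 4 libraries) were higher and none lower, with a summed level of 222 to 281 CPM in the knockout, against 30.9 to 34.0 CPM in the control. Ear1, Ear2 and Ear6 reached the count needed for testing only through their knockout counts. Ear6 and Il5ra, the latter not tested, had 0 counts in both control libraries. Prg2 was at 249 and 189.8 CPM and Epx at 20.2 and 18.3 CPM in the knockout, against 27.1 and 25.7 CPM and 2.66 and 1.04 CPM in the control. Of dendritic cell markers, 4 of 8 tested were higher and 2 lower, with a summed level of 50.7 CPM in both knockout libraries, against 14.4 to 16.8 CPM in the control, most of it from Ccr7 at 41.1 and 41.1 CPM in the knockout, against 2.17 and 2.68 CPM in the control, while Batf3 was at 0.932 and 1.44 CPM against 6.63 and 6.11 CPM. Of B cell markers, 5 of 7 tested were higher and 1 lower, with sums of 46.8 to 50.0 CPM in the knockout, against 32.9 to 35.0 CPM in the control, led by Cd79b at 15.7 and 17.3 CPM and Cd79a at 12.5 and 12.9 CPM in the knockout, against 25.2 and 25.8 CPM and 0.897 and 1.35 CPM in the control. Pax5 and Ebf1, both higher, reached the count needed for testing only through their knockout counts. Neutrophil markers had 1 of 10 higher and 4 lower, with overlapping sums of 5235 to 6688 CPM in the knockout, against 5812 to 7097 CPM in the control, led by S100a9 at 1699.6 and 2407 CPM and Ngp at 1424 and 1759 CPM in the knockout, against 2373 and 2090.5 CPM and 2120 and 1547 CPM in the control. The part of these cells in the Acp5, Ctsk and Src results was not tested.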

How the data were processed

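Poly(A) RNA-seq was available for 2 Adcy7 knockout and 2 Rosa control libraries, grouped by their titles and all given batch number 1 in the labels. The authors deposited estimated counts (expected counts) per Ensembl gene; the values are whole numbers with unequal library totals. The submitters' processing notes name build GRCm39 and the tools fastp, HISAT2, StringTie and edgeR, without versions or settings, and how counts were derived is not given in the sources used. No strand-preserving method is named. Knockout columns are headed KO3, a code the labels leave unexplained.

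Symbols came from an annotation of build GRCm38 (55141 of 55401 IDs matched), and exon lengths for TPM from GENCODE M21 (99.5% of IDs). Genes were filtered with filterByExpr, scaled by TMM, and tested with edgeR 4.0.16 (glmQLFit without prior dispersion estimates, 2 residual degrees of freedom) in R 4.3.3. The SE of a log2 fold change was back-calculated from the test, as its absolute value divided by the square root of the F statistic. CPM are per deposited library total. Among counts of 1 to 40, multiples of 4 made up 30.54% to 32.17%, above the 25% of evenly spread counts, so 1 fragment was taken as about 4 counts; this is an assumption that floors and intervals rest on. Intervals and floors cover counting error only, because amplified reads lacking molecular identifiers are not independent. Alternatives used DESeq2 1.42.0, limma 3.58.1 (voom), other scalings and filters, a replicate block and libraries left out; the earlier quasi-likelihood method and counts divided by 4 were added after seeing the data. The test was also run on simulated counts with few changed genes and the same dispersion for every gene. That setting differs from these data, so no conclusion is drawn from it.

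The members and lists were chosen with earlier results of these data known. Named genes were all members, up to 4 passing genes with the largest change and 2 non-passing genes per pathway list, 2 markers per marker list and 2 nearest genes per tested member; others are named where a member's role called for it, after their values were seen. A result that this rule would name is not reported here.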

Additional observations from a re-analysis of the deposited data

How the results depend on the processing

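Acp5 and Tnfrsf11a kept their direction and call under all 14 alternatives, with log2 fold changes of 2.98 to 3.18 and -2.28 to -2.16. Without each library in turn, Nfatc1 ranged from -0.42 to -0.34 and lost its call without either control library (adjusted p over all its alternatives 0.00762 to 0.096), and Dcstamp ranged from 0.74 to 7.50 and passed only without Rosa control replicate 2 (adjusted p over its alternatives 0.0499 to 0.636). Dcstamp could not be tested with the stricter filter or with counts divided by 4. Members passing numbered 2 to 3 when a library was left out, 2 without Rosa control replicate 1. Over all genes, 7848 passed, and 6091 to 7852 under the alternatives. Lower resorption genes numbered 1 to 2, 2 without Adcy7 knockout replicate 2, and higher transcription factors 5 to 9, 5 without either control library. Ppp3r1 ranged from -0.16 to 0.08 and Cyld from -0.31 to 0.02 with a library left out, both positive without Adcy7 knockout replicate 1 and neither called there. Rab7, Jund and Cyld passed without Adcy7 knockout replicate 2 (adjusted p of 0.0327, 0.0334 and 0.0307), and Adam8 without replicate 1 (0.0309). Tnfsf11 (adjusted p over its alternatives 0.00237 to 0.0975) could not be tested with the stricter filter, with counts divided by 4 or without Adcy7 knockout replicate 2. The cause was not tested, except that a left-out library leaves fewer samples, the lone sample being assumed to vary like the other group. With the replicate number as a block, 7843 genes and 3 members passed, and no member's call changed and no list count moved by over 1.5 times; the deviations of same-numbered libraries had a correlation of 0.015, so the numbers were not taken as pairs. Depth limits Dcstamp, Ocstamp, Oscar, Calcr, Siglec15 and Tnfsf11.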
